A study of Mus musculus with 12 samples.

Results

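The 7 genes described here belong to thyroid hormone signalling: the nuclear receptor genes *Thra* and *Thrb*, the deiodinase genes *Dio2* and *Dio3*, the transporter gene *Slc16a10* and the target genes *Klf9* and *Hr*. They were named as a set, by a rule that uses no measured value but was made with earlier results of these data known, from the 55450 genes of the count table. All 7 of 7 were found and were among the 19276 genes with enough counts to be tested. *Dio3* passed this filter only through its E18.5 libraries. RNA was sequenced from tibialis anterior (TA) muscle of wild-type mice of the 129Pas background (129SvPas in the study's methods) at E18.5, shortly before birth, and at 2 wks and 7 wks of age, with 4 mice per age. No mouse was treated and none carried a mutation, so age is the only difference between the groups that the labels give. The series describes muscle before and after birth, and the comparisons of ages ask which genes change as the muscle matures.

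Thyroid hormone reaches cells mostly as the prohormone T4, which transporters such as MCT10, the product of *Slc16a10*, carry across the plasma membrane. Type 2 deiodinase (*Dio2*) turns T4 into the active hormone T3, and type 3 deiodinase (*Dio3*) inactivates both. T3 binds the receptors TRα (*Thra*) and TRβ (*Thrb*), which sit on DNA with retinoid X receptors and recruit corepressors without hormone and coactivators with it. In skeletal muscle the hormone is known for driving the postnatal switch to fast contractile and calcium pump isoforms and for raising energy expenditure, and in mice its level in blood climbs after birth.

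The libraries held 63018968 to 123449246 counts. The 6 skeletal muscle markers, among them *Ckm* and *Acta1*, had counts in every library, and their summed level ran from 12100 to 21600 CPM (counts scaled to library size, with TMM) at E18.5, from 111000 to 135000 at 2 wks and from 111000 to 150000 at 7 wks. Adipocyte markers set 2 of the E18.5 libraries apart. The sum of *Ucp1* and *Cidea*, markers of brown adipocytes, was 3.47 and 4.63 CPM in E18.5 replicates 1 and 2 but 375 and 1300 CPM in replicates 3 and 4, against 1.26 to 3.62 CPM at 7 wks and 3.83 to 5 CPM in 2 wks replicates 1, 3 and 4. In 2 wks replicate 2 *Ucp1* was at 11.6 and *Cidea* at 6.94 CPM. The 4 general adipocyte markers (*Adipoq*, *Plin1*, *Cidec* and *Lep*) summed to 10.3, 13.5, 365 and 338 CPM in the same order of replicates, and to at most 7.04 CPM at the later ages. E18.5 replicate 2 held the most signal of epidermis (54.7 CPM, against 6.46 to 16.4 in the other E18.5 libraries) and of cartilage and bone (151 against 23.9 to 61.8 CPM). The changes of the 7 genes from E18.5 are therefore also given without replicates 3 and 4, an alternative added after the data were seen. In bulk RNA, a change in the number of cells of a type cannot be told apart from a change in RNA per cell.

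RefSeq promoter windows were at hand for 5 of the genes, *Thrb*, *Dio2*, *Dio3*, *Slc16a10* and *Klf9*. The 250 bases before the start site are printed for the receptor gene with a half-site, for both deiodinase genes, which fell together, and for *Klf9*, a gene that rose. Each is read 5′ to 3′ on the gene's own strand in GRCm38.p6. Capitals mark the half-site letters AGGTCA, which thyroid hormone receptors and other nuclear receptors can bind, the cAMP response element TGACGTCA and the TATA box letters TATAAA. The latter 2 motifs were added after the windows had been seen.
Thrb, chr14:17660710-17660959, plus strand: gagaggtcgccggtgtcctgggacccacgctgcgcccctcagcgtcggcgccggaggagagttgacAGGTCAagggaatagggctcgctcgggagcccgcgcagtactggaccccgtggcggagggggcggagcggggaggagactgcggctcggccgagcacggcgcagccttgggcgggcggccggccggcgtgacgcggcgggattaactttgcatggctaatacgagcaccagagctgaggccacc
Dio2, chr12:90739039-90739288, minus strand: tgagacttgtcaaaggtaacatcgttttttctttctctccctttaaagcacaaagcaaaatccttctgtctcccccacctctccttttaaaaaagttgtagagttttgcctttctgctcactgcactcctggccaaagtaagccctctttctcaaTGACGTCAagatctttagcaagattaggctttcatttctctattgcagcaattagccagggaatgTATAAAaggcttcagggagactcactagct
Dio3, chr12:110278980-110279229, plus strand: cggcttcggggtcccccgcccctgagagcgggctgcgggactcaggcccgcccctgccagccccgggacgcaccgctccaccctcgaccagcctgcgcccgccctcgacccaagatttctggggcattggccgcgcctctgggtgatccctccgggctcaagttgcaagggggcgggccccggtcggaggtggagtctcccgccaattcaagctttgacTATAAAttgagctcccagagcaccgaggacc
Klf9, chr19:23140976-23141225, plus strand: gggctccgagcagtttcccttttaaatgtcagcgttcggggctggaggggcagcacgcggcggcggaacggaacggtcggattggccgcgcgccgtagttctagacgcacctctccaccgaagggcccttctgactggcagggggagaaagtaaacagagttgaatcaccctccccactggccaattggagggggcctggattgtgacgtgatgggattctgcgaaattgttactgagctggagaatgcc

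Over the whole windows, which run from 250 bases before to 50 bases after the start, the half-site on either strand occurred once, at position -184 of this *Thrb* window, and in 16.3% of the 32851 windows of all genes. Its direct repeat with a spacer of 4 bases, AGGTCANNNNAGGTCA, was in none of the windows of these 5 genes and in 0.0152% of all windows. The *Dio2* window held the cAMP response element at -95, which 1.79% of windows hold, and TATAAA at -30. The *Dio3* window held TATAAA at -31, and 8.32% of windows hold these letters on the gene's strand. The windows of *Slc16a10* and *Klf9* held none of these letters. A match describes the sequence and does not show binding. A second window of *Thrb* held TATAAA at -167 and no half-site. Both *Thrb* windows lie inside the span of the gene given below.

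Between E18.5 and 2 wks, *Hr*, *Klf9* and *Slc16a10* rose while *Dio2* and *Dio3* fell, so that 5 of the 7 genes passed an adjusted p of 0.05 (quasi-likelihood test of edgeR, adjusted after Benjamini and Hochberg over all genes tested, as for every adjusted p here). The share of all tested genes that passed in this comparison was 65.7%, with 31.5% higher and 34.2% lower at 2 wks. From 2 to 7 wks, *Slc16a10* and *Klf9* rose further and none fell (2 of 7, against 27.5% of all genes, 13.5% higher and 13.9% lower). From E18.5 to 7 wks 5 genes rose and 2 fell (7 of 7, against 71.4% of all genes, 34.3% higher and 37.1% lower). *Dio3*, which entered the test through the age where it was high, is among the genes counted as lower in both comparisons with E18.5. Without E18.5 replicates 3 and 4 the counts were 4 higher and 1 lower both to 2 wks and to 7 wks. The contrast of the later with the earlier change was called for 3 of the 7 (1 higher and 2 lower), beside 38.4% of all genes (16.8% higher and 21.6% lower). Most of these shares lay near those of all genes, and what follows describes each gene's size and pattern. The comparisons share libraries, since the 2 wks libraries enter both intervals.

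Ages without any overlap between their libraries in TMM-scaled CPM were another measure. To 2 wks, *Slc16a10*, *Klf9* and *Hr* lay wholly higher, as did 28.9% of all genes, and *Dio2* wholly lower, as did 32.4%. *Thrb*, *Slc16a10*, *Klf9* and *Hr* lay wholly higher at 7 wks than at 2 wks, as did 17.3% of all genes, and none wholly lower (16.4%). The same 4 genes lay wholly above E18.5 at 7 wks (30.2% of all genes), and none wholly below (33.3%). Asking for a log2 fold change beyond 1 by edgeR's glmTreat left 4 of the 7 genes to 2 wks against 28.6% of all genes, 0 from 2 to 7 wks against 2.91%, 5 over the whole span against 39.3% and 2 for the contrast of intervals against 12.8%.

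**Figure D1:**
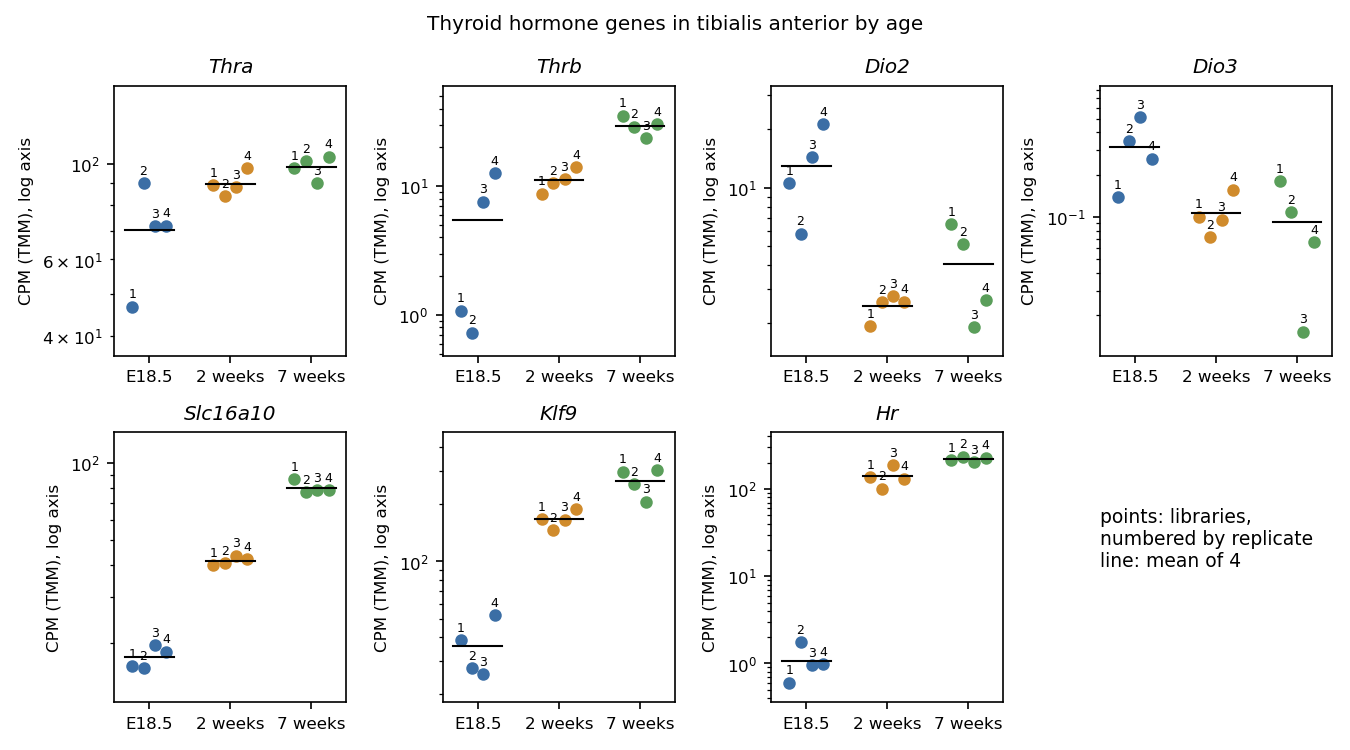
TMM-scaled CPM (log axis) of the 7 thyroid hormone genes in each of the 12 libraries at the 3 ages. Points are libraries numbered by replicate and lines are means of 4. *Hr* stays under 2 CPM at E18.5 and above 100 CPM later, and *Thrb* at E18.5 splits into replicates 1 and 2 (1.08 and 0.730 CPM) and replicates 3 and 4 (7.57 and 12.6 CPM).

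*Thra* (chr11:98740776-98769006 in GRCm38.p6, ENSMUSG00000058756), the receptor gene that muscle is known to use most, was read at 46.7, 90.0, 71.7 and 71.8 CPM in the 4 E18.5 libraries, at 89.0, 84.2, 88.3 and 97.7 CPM at 2 wks and at 97.5, 101, 90.0 and 104 CPM at 7 wks. Only E18.5 replicate 1 lay well apart, and the ages overlapped in both intervals. The log2 fold change was 0.36 (SE 0.17, adjusted p = 0.0752) to 2 wks and 0.13 (SE 0.17, adjusted p = 0.605) from 2 to 7 wks. Over the whole span *Thra* rose by 0.49 on the log2 scale (SE 0.17, adjusted p = 0.0188), 1.4-fold. This small rise depended on the scaling of the libraries: with total counts in place of TMM, *Thra* was lower at 7 wks by a log2 fold change of -0.79 (adjusted p = 0.000828). It was also no longer past the threshold without E18.5 replicates 3 and 4 (0.52, adjusted p = 0.0604). Of 24 alternatives in all, 7 left this rise short of the threshold and 2 turned it. *Thra* overlaps *Nr1d1*, a clock repressor gene on the opposite strand, over 1694 exon bases or 21.4% of its own. *Nr1d1* rose by 3.74 (adjusted p = 2.05e-06) and then by 1.53 (adjusted p = 0.00519) on the log2 scale, and since the strand setting of the counting is not given in the sources used here, its part in the *Thra* counts was not tested.

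*Thrb* (chr14:17659225-18040097, ENSMUSG00000021779), the receptor gene known from liver and from hormone feedback in the pituitary, was at 1.08, 0.730, 7.57 and 12.6 CPM at E18.5, at 8.74, 10.6, 11.4 and 14.0 CPM at 2 wks and at 35.3, 29.1, 23.5 and 30.4 CPM at 7 wks. Every 7 wks library lay above every 2 wks library. At E18.5 the libraries fell into a low and a high pair, and the high pair was the one with the adipocyte markers. With all 12 libraries the change to 2 wks was not past the threshold (log2 fold change 1.02, SE 0.63, adjusted p = 0.169), nor was the change from 2 to 7 wks (1.41, SE 0.64, adjusted p = 0.117). The whole span was, with a rise of 2.43 (SE 0.66, adjusted p = 0.00447), or 5.38-fold, a call that was lost with total counts (1.15, adjusted p = 0.105).

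Without E18.5 replicates 3 and 4, *Thrb* rose by 3.62 (SE 0.29, adjusted p = 1.91e-06) to 2 wks and by 5.03 (adjusted p = 1.63e-07) to 7 wks. With single libraries left out the change to 2 wks ran from 0.66 without E18.5 replicate 2 to 1.83 without E18.5 replicate 4, and only the latter passed (adjusted p = 0.0186). When only the 8 libraries of 2 and 7 wks were fitted, so that the spread at E18.5 did not enter, the later rise was 1.37 (SE 0.17, adjusted p = 0.000386). The part of adipocyte RNA in the E18.5 level of *Thrb* was not tested. The plot of brown adipocyte markers beside 4 of the genes shows the same libraries for *Dio2*, *Klf9* and *Slc16a10*, whose E18.5 values were spread much less.

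**Figure D2:**
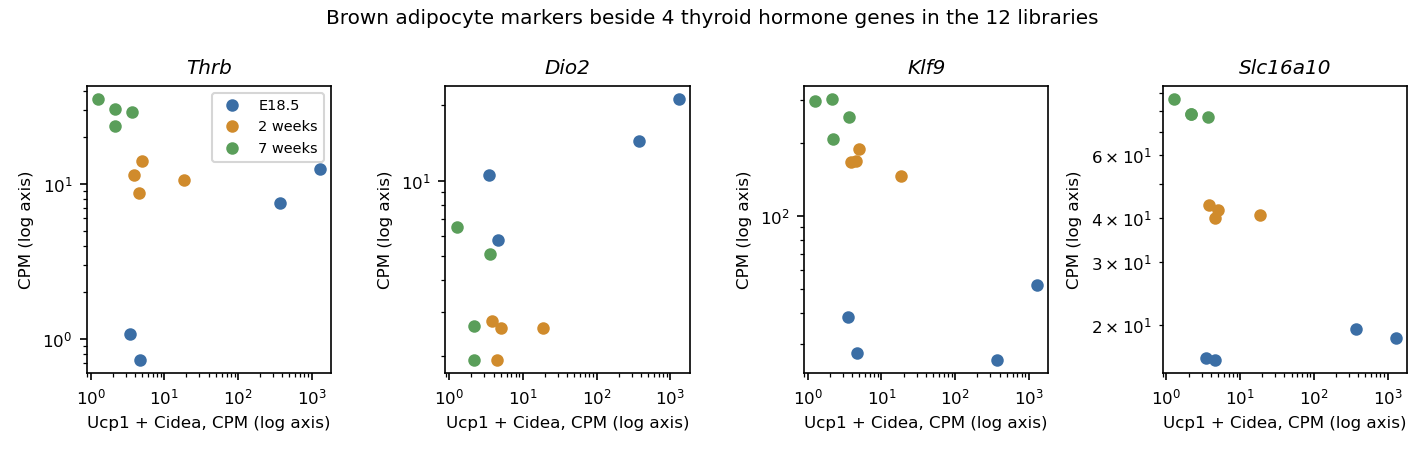
TMM-scaled CPM of *Thrb*, *Dio2*, *Klf9* and *Slc16a10* (vertical log axes) against the summed CPM of the brown adipocyte markers *Ucp1* and *Cidea* (horizontal log axes) in the 12 libraries, coloured by age. The 2 E18.5 libraries at 375 and 1300 CPM of marker have the highest *Thrb* and *Dio2* of that age, and *Klf9* and *Slc16a10* stay below every later library.

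*Dio2* (chr12:90724552-90739038, ENSMUSG00000007682), the gene of the activating deiodinase, was at 10.5, 5.80, 14.4 and 21.2 CPM at E18.5, at 1.93, 2.58, 2.75 and 2.59 CPM at 2 wks and at 6.50, 5.11, 1.92 and 2.62 CPM at 7 wks. All E18.5 libraries lay above all 2 wks libraries, and at 7 wks replicates 1 and 2 stood above the 2 wks range while replicates 3 and 4 lay at or below its upper end. *Dio2* fell by 2.40 on the log2 scale to 2 wks (SE 0.41, adjusted p = 0.000186), 5.27-fold, and the value from 2 to 7 wks was 0.71 (SE 0.40, adjusted p = 0.205). The change in the later interval exceeded that in the earlier one by 3.11 (SE 0.74, adjusted p = 0.00564). *Dio2* is also a gene of brown fat, and the 2 E18.5 libraries with brown adipocyte markers had the highest values. Without them the fall to 2 wks was still called (log2 fold change -1.73, adjusted p = 0.00315), as was that to 7 wks (-1.02, adjusted p = 0.0442).

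*Dio3* (chr12:110279230-110281097, ENSMUSG00000075707), the gene of the inactivating deiodinase, was the scarcest of the 7 at 2 and 7 wks. Its libraries held 20, 60, 105 and 52 reads at E18.5, 6, 7, 7 and 12 reads at 2 wks and 9, 7, 1 and 4 reads at 7 wks, which is 0.139 to 0.512 CPM at E18.5, 0.0722 to 0.157 CPM at 2 wks and 0.0153 to 0.181 CPM at 7 wks. The ages overlapped, because E18.5 replicate 1 lay inside the later ranges. *Dio3* fell by 1.57 to 2 wks (SE 0.52, adjusted p = 0.0164) and by 1.80 to 7 wks (SE 0.55, adjusted p = 0.00913). The filter admitted it through the E18.5 libraries, and both falls were also called with no filter on low counts. The value from 2 to 7 wks was -0.23 (SE 0.61, adjusted p = 0.808), with a 95% interval from -1.43 to 0.96. The fall to 2 wks lost its call without E18.5 replicate 3 (-1.23, adjusted p = 0.0598), without 2 wks replicate 2 (-1.40, adjusted p = 0.0559) or without E18.5 replicates 3 and 4 (-1.20, adjusted p = 0.111), and the fall to 7 wks lost it without E18.5 replicates 3 and 4 (-1.43, adjusted p = 0.0659).

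*Slc16a10* (chr10:40033532-40142270, ENSMUSG00000019838), which encodes the thyroid hormone and aromatic amino acid transporter MCT10, gave the tightest steps of the set. It was at 16.2, 15.9, 19.5 and 18.4 CPM at E18.5, at 40.0, 40.8, 43.6 and 42.2 CPM at 2 wks and at 86.4, 76.9, 78.6 and 78.6 CPM at 7 wks. With TMM, no library of an age overlapped another age. With total counts, E18.5 replicate 3 (34.5 CPM) lay above 2 wks replicate 4 (34.2 CPM). *Slc16a10* rose by 1.25 (SE 0.12, adjusted p = 1.21e-06) and then by 0.94 (SE 0.12, adjusted p = 0.000109), or 2.38-fold and 1.92-fold. Over 24 alternatives the size of the first step ran from 0.32 to 1.38. When E18.5 replicates 3 and 4 were left out, the first step was 1.38 (adjusted p = 2.01e-05) and the whole span 2.32 (adjusted p = 2.99e-07). The sizes of the 2 steps were not shown to differ (difference -0.31, SE 0.20, adjusted p = 0.233), although with the GC trend removed the later step was the smaller one (-0.59, adjusted p = 0.0155). Of all tested genes, 5.97% rose in both intervals, and of the 7 genes *Slc16a10* and *Klf9* did.

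*Klf9* (chr19:23141226-23168129, ENSMUSG00000033863), a zinc-finger transcription factor gene that T3 is known to induce directly, was at 38.7, 27.4, 25.6 and 52.2 CPM at E18.5, at 167, 146, 166 and 189 CPM at 2 wks and at 298, 254, 207 and 302 CPM at 7 wks. The 3 ages did not overlap, and 7 wks replicate 3 was closest to the 2 wks range. *Klf9* rose by 2.22 to 2 wks (SE 0.22, adjusted p = 2.42e-06), 4.65-fold, and by 0.67 from 2 to 7 wks (SE 0.22, adjusted p = 0.0341), 1.59-fold. Without E18.5 replicates 3 and 4 the first step was 2.34 (adjusted p = 9.93e-06) and the whole span 3.00 (adjusted p = 8.87e-07). The second step was smaller than the first by 1.55 on the log2 scale (difference -1.55, SE 0.36, adjusted p = 0.00515). The call of the second step was lost with total count scaling (0.33, adjusted p = 0.24) and when any of 2 wks replicates 1, 2 or 3 or 7 wks replicates 1, 2 or 4 was left out (0.60 to 0.69). Upper quartile scaling (adjusted p = 0.0635) and removal of the GC (adjusted p = 0.0629) or length trend (adjusted p = 0.0547) also lost it. In all, 11 of 23 alternatives left this step short of the threshold.

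*Hr* (chr14:70554056-70573548, ENSMUSG00000022096) encodes hairless, a nuclear corepressor, and is a known direct target of T3 in the developing brain. Its values were 0.603, 1.74, 0.951 and 0.983 CPM at E18.5, 137, 101, 189 and 131 CPM at 2 wks and 215, 236, 205 and 228 CPM at 7 wks. The E18.5 libraries held 87, 301, 195 and 197 reads of *Hr*, so the low level rests on counted reads. *Hr* rose by 7.02 (SE 0.34, adjusted p = 5.13e-09), 130-fold, and this change lay at percentile 99.9 of all tested genes. It was 6.89 (adjusted p = 7.02e-07) without E18.5 replicates 3 and 4, and to 7 wks 7.55 (adjusted p = 1.93e-07). From 2 to 7 wks the groups again did not overlap, but the value of 0.66 (SE 0.26, adjusted p = 0.0711) missed the threshold. With only the 8 libraries of these ages it passed (0.63, adjusted p = 0.0166). The later step was smaller than the earlier one by 6.36 (difference -6.36, SE 0.44, adjusted p = 5.99e-07). *Hr* is expressed in skin as well. Its highest E18.5 value was in replicate 2, which had the most epidermis signal. At 2 and 7 wks the epidermis markers summed to 9.87 to 18.7 CPM. Most of this sum was *Trp63*, at 6.99 to 10.97 CPM in these libraries. The keratin markers *Krt5*, *Krt14* and *Krt1* held at most 3 reads in any 2 wks library. The keratin *Krt10* of the same list held 195 to 350 reads in these libraries. At 7 wks *Krt5*, *Krt14* and *Krt1* reached 190 reads, for *Krt5* in replicate 2, and *Krt10* held 81 to 209 reads. The part of epidermal RNA in the *Hr* values was not tested.

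**Figure D3:**
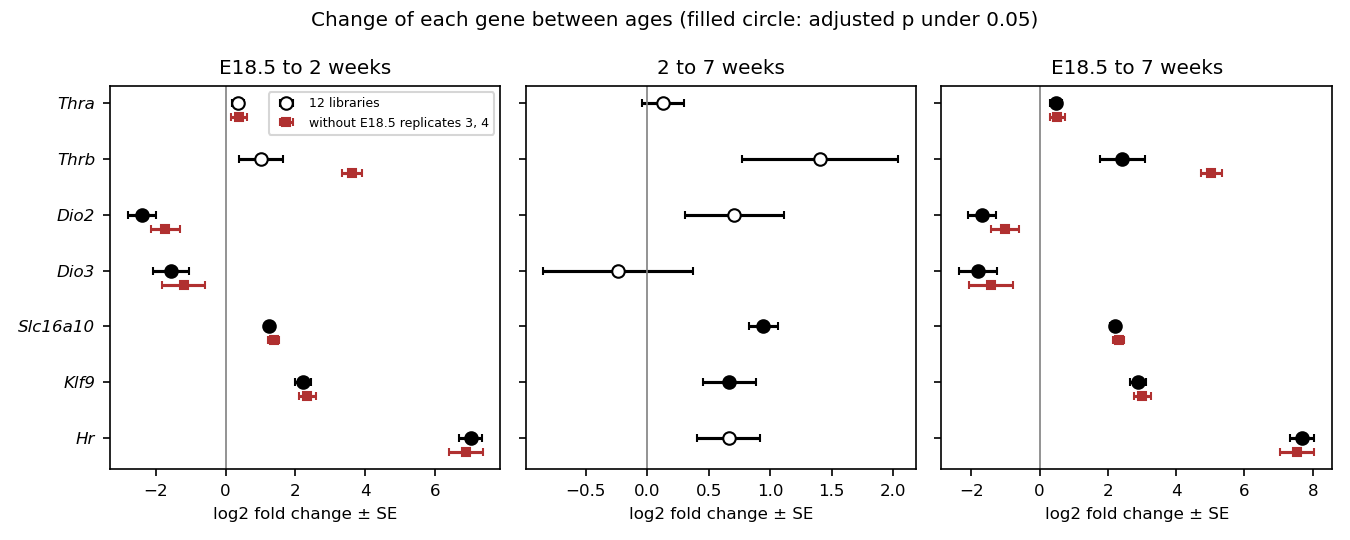
Log2 fold change with its SE for each of the 7 genes in the 3 comparisons of ages, with all 12 libraries (circles, filled where the adjusted p was under 0.05) and without E18.5 replicates 3 and 4 (red squares). *Thrb* moves from 1.02 to 3.62 in the first comparison when these libraries are left out, and *Hr* stays near 7.

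Ratios of 2 genes within a library do not depend on the scaling between libraries. Per kilobase of exons, *Thrb* stood to *Thra* at 0.0200, 0.00702, 0.0911 and 0.151 at E18.5, at 0.0847, 0.108, 0.111 and 0.123 at 2 wks and at 0.312, 0.247, 0.225 and 0.253 at 7 wks. *Thra*, with all its transcripts counted together, thus remained the more abundant receptor gene per length in every library. The part of *Nr1d1*, which overlaps its exons, was not tested here either. The log2 ratio was -4.75 ± 2.03 (SD, n = 4) at E18.5, followed by -3.24 ± 0.23 at 2 wks and by -1.96 ± 0.20 at 7 wks. It was higher at 7 wks than at 2 wks in 16 of 16 pairs of mice, by 1.28 (exact permutation test, two-sided, p = 0.0286, adjusted over 6 tests 0.0572). That p is the smallest which the 70 regroupings of 4 against 4 libraries can give. The difference between E18.5 and 2 wks was 1.51 (exact permutation p = 0.343, adjusted 0.412), and between E18.5 and 7 wks 2.79 (exact permutation p = 0.0286, adjusted 0.0572). These differences were 3.16 and 4.44 without E18.5 replicates 3 and 4, for which no test was run.

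For the deiodinases, *Dio2* stood to *Dio3* at a log2 ratio per kilobase of 3.69 ± 1.11 (SD, n = 4) at E18.5, then 2.83 ± 0.50 at 2 wks and finally 3.86 ± 0.60 at 7 wks. The transcript of the activating enzyme was therefore the more abundant per length at all ages, with ratios from 5.02 to 26.4 across the 12 libraries. Between 2 and 7 wks the log2 ratio differed by 1.03 (exact permutation test, two-sided, p = 0.0286, adjusted 0.0572), and the other comparisons gave -0.86 (p = 0.257, adjusted 0.386) and 0.17 (p = 0.743), both exact. Without E18.5 replicates 3 and 4 these other differences were -0.64 and 0.39. The ratio at 7 wks leans on 1 to 9 *Dio3* reads per library.

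**Figure D4:**
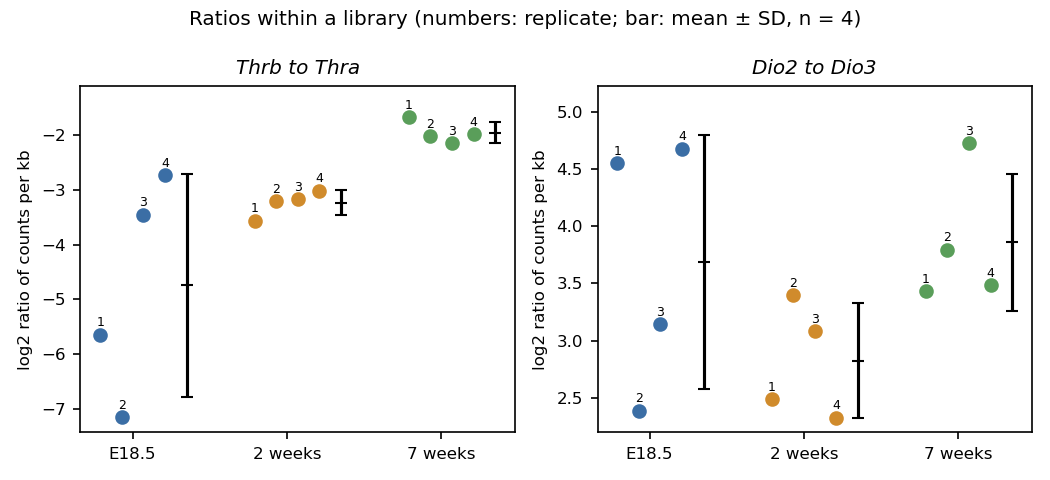
Log2 ratios of counts per kilobase within each library, *Thrb* to *Thra* on the left and *Dio2* to *Dio3* on the right, by age. Points are libraries numbered by replicate, and bars show the mean ± SD of 4. The receptor ratio spreads widely at E18.5 (SD 2.03) and sits at -1.96 ± 0.20 at 7 wks.

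Levels can be compared between genes only per length. In mean CPM per kilobase, the order at E18.5 was *Thra* (8.83), *Klf9* (4.38), *Slc16a10* (2.19), *Dio2* (2.02), *Thrb* (0.597), *Dio3* (0.155) and *Hr* (0.152), and the ranges of neighbours overlapped except between *Klf9* and *Slc16a10*. At 2 wks the order was *Klf9* (20.3), *Hr* (19.8), *Thra* (11.3), *Slc16a10* (5.21), *Thrb* (1.21), *Dio2* (0.383) and *Dio3* (0.0524). At 7 wks the same order held with 32.3 for *Klf9*, 31.3 for *Hr*, 12.4 for *Thra*, 10 for *Slc16a10*, 3.22 for *Thrb*, 0.628 for *Dio2* and 0.0456 for *Dio3*. At these ages only *Klf9* and *Hr* overlapped among neighbours. Both target genes thus passed from below *Thra* to above it, and *Hr* moved from the low end, where *Dio3* was above it in 1 of 4 libraries, to beside *Klf9*.

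Genes with the most similar course over the 12 libraries were found by the root mean square difference of centred log2 CPM among 11379 other protein-coding genes (11380 for *Dio3*). For *Klf9* these were *Abcc4* (0.159), a drug and nucleotide exporter gene, and *Ppp1r3c* (0.234), which encodes a glycogen-targeting subunit of protein phosphatase. *Hr* was most like *Kcna7* (0.377), a potassium channel gene, and *Scn4b* (0.533), a sodium channel subunit gene. *Slc16a10* ran closest to *Isca1* (0.162), an iron-sulfur cluster assembly gene, and *Ankrd40* (0.163). *Thrb* was nearest to *Pfkfb1* (0.433), a glycolytic regulator gene, which was likewise higher in E18.5 replicates 3 and 4 (24.0 and 26.8 CPM) than in replicates 1 and 2 (5.71 and 4.89 CPM). *Thra* was nearest to *Kdm4a* (0.088) and *Cog2* (0.093), *Dio2* to *Insig1* (0.409) and *Dpyd* (0.424), and *Dio3* to *Runx1* (0.536) and *Myh10* (0.557). Among the 7 genes themselves, *Slc16a10* and *Klf9* were the closest pair (0.512).

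The other genes of the pathway were taken from a list of 33, of which *Dio1*, *Ttr* and *Slc17a4* had too few counts to be tested. Of the 30 tested, 12 rose and 6 fell between E18.5 and 2 wks (18 of 30, against 65.7% of all genes), and 11 rose and 5 fell from 2 to 7 wks (16 of 30, against 27.5%). Their median log2 fold changes were 0.17 and 0.40, beside -0.09 and -0.03 over all tested genes. These directions depended on scaling, since total count scaling, which moved the median of all genes to -1.02 and -0.38, gave 5 higher and 19 lower in the first interval and 4 and 6 in the later one. Without E18.5 replicates 3 and 4, 12 rose and 5 fell to 2 wks.

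*Slc7a5*, an amino acid transporter gene whose product also carries thyroid hormone, fell in both intervals (-2.30, adjusted p = 2.17e-06, and -1.14, adjusted p = 0.0027). Of 4 transporter genes tested, it alone fell to 2 wks, beside 34.2% of all genes, and the other 3 did not pass. With total counts all 4 were called lower, as were 11917 of all 19276 genes. *Crym*, which encodes a T3-binding protein of the cytosol, had a value of 0.31 (adjusted p = 0.246) to 2 wks and fell by 0.87 (adjusted p = 0.013) afterwards. *Thrsp*, a lipogenic T3 target of fat and liver, was at 10.5, 16.6, 87.6 and 143 CPM at E18.5, again high in the libraries with adipocyte markers. It changed by -1.16 (adjusted p = 0.0935) with them and rose by 1.08 (adjusted p = 0.00193) without.

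The receptor partners rose: all 3 retinoid X receptor genes were higher at 2 wks with TMM (for example *Rxra* with 1.50, adjusted p = 0.000207), and none passed with total counts. Under the GC correction 1 of the 3 passed, and *Rxra* was at 0.29 (adjusted p = 0.129). *Rxrg*, the muscle-enriched form, rose by 1.22 (adjusted p = 0.000144) and again by 1.11 (adjusted p = 0.00158). Among 5 genes of the corepressor complex 1 rose and 2 fell to 2 wks (0 and 4 with total counts), and 2 rose and none fell from 2 to 7 wks (0 and 1 with total counts). Each of these counts stands beside 31.5% of all genes higher and 34.2% lower to 2 wks, and 13.5% and 13.9% from 2 to 7 wks. Among 8 coactivator genes 2 rose and 1 fell to 2 wks, and 5 rose and none fell from 2 to 7 wks. With total counts these counts became 0 and 7, and 1 and 0. *Kat2b*, a histone acetyltransferase gene, rose by 0.84 (adjusted p = 0.00171) and 1.08 (adjusted p = 0.00146), the first of these turning to -0.11 with total counts. *Ppargc1a*, the coactivator gene known for mitochondrial biogenesis, had 0.10 (adjusted p = 0.778) in the first interval and rose by 0.99 (adjusted p = 0.0287) in the later one. Its first value was 0.65 (adjusted p = 0.068) without E18.5 replicates 3 and 4, and 8 of 23 alternatives lost the later call.

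Of 8 genes known to respond to T3 in muscle and metabolism, 6 were higher and 2 lower at 2 wks (5 and 2 with total counts). Of all tested genes, 31.5% were higher and 34.2% lower in this comparison. Their median log2 fold change was 2.09, beside -0.09 over all tested genes. *Ucp3*, a mitochondrial carrier gene, rose by 5.42 (SE 0.28, adjusted p = 9.36e-09). *Atp2a1*, the fast-fibre calcium pump gene, rose by 4.33 (SE 0.28, adjusted p = 4.8e-08), and *Slc2a4*, which encodes the insulin-responsive glucose transporter GLUT4, by 2.76 (adjusted p = 1.49e-06). *Atp2a2*, the gene of the slow-fibre calcium pump, and *Myh7*, the slow myosin gene, fell (-1.83, adjusted p = 1.3e-06, and -3.23, adjusted p = 0.000274). From 2 to 7 wks 2 rose and 3 fell, beside 13.5% and 13.9% of all genes. *Ucp2* fell by 1.85 on the log2 scale (SE 0.29, adjusted p = 0.000652), after a rise of 1.34 (adjusted p = 0.00108) to 2 wks. The later fall of *Myh7* went from -1.84 to -0.79 (adjusted p = 0.146) without 2 wks replicate 1, and 6 of 23 alternatives lost its call. That of *Atp2a2* (-0.51, adjusted p = 0.036) lost its call in 7 of 23 alternatives. The values for *Ucp3* (0.41, adjusted p = 0.207) and *Atp2a1* (0.44, adjusted p = 0.195) did not pass. *Me1*, the malic enzyme gene, rose in both intervals (1.99, adjusted p = 5.82e-05, and 1.61, adjusted p = 0.00157). Over the same interval to 2 wks the summed skeletal muscle markers rose several-fold, and their part in these values was not tested.

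**Figure D5:**
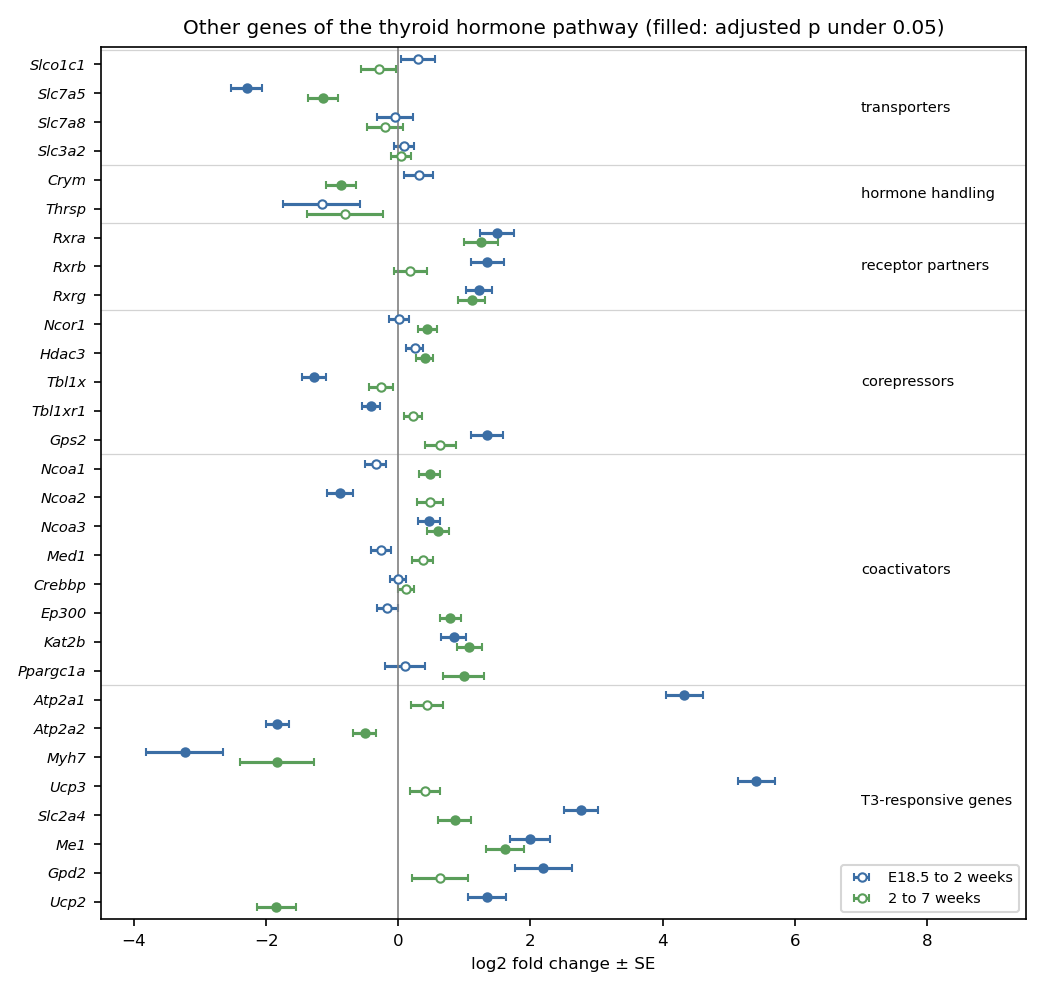
Log2 fold change with its SE of the 30 tested pathway genes from E18.5 to 2 wks (blue) and from 2 to 7 wks (green), grouped by role, filled where the adjusted p was under 0.05. The T3-responsive genes reach 5.42 (*Ucp3*) and -3.23 (*Myh7*) in the first interval, while most cofactor genes lie within 1 of 0.

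*Dio3* lies at the end of an imprinted domain whose genes were read beside it. Of 6 genes of the *Dlk1*-*Dio3* domain 0 rose and 5 fell to 2 wks, and 0 rose and 4 fell from 2 to 7 wks (34.2% and 13.9% of all genes fell), with medians of -2.54 and -2.29. *Dlk1*, which encodes a Notch-related surface protein, fell in both intervals (-3.66, adjusted p = 1.22e-05, and -4.96, adjusted p = 2.69e-05). *Meg3*, the maternally expressed long RNA of the domain, did so too (-2.04, adjusted p = 2.45e-05, and -2.52, adjusted p = 5.45e-05). The antisense neighbour *Dio3os* was at 0.367, 0.382, 2.16 and 0.509 CPM at E18.5 and did not pass (-0.99, adjusted p = 0.117), a value that became 0.03 without E18.5 replicate 3. The E18.5 library with the most *Dio3* reads, replicate 3, was the one with the most *Dio3os*. This replicate also held adipocyte markers. In E18.5 replicate 4, which held them too, *Dio3* was at 0.259 CPM, below 0.348 CPM in replicate 2. *Dio3os* in replicate 4 was at 0.509 CPM, above 0.382 CPM in replicate 2. The part of adipocyte RNA in both genes was not tested.

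*Klf9* also responds to glucocorticoids and to the circadian clock, so genes of both were read with it. Of 4 glucocorticoid-induced genes 2 rose to 2 wks and 3 from 2 to 7 wks, and none fell (1 and 1 in each interval with total counts), beside 31.5% and 13.5% of all genes that rose. *Tsc22d3*, which encodes the glucocorticoid-induced leucine zipper, rose by 1.72 (adjusted p = 8.87e-06) and by 0.75 (adjusted p = 0.0134). *Fkbp5*, a cochaperone gene of the glucocorticoid receptor, had a value of -0.49 (adjusted p = 0.283) and then rose by 1.69 (adjusted p = 0.0074). Of 7 clock genes 4 rose in each interval, beside the same shares of all genes, and none fell (3 up and 3 down, then 2 up, with total counts). The hour of tissue collection and hormone levels were not part of the labels, and the share of each signal in the *Klf9* values was not tested.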

How the data were processed

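TA muscle RNA of 12 wild-type mice was read with a stranded, polyA-selected library kit as paired 100 bp reads. The submitters' processing notes name bcl2fastq 2.17.1.14, cutadapt 1.10, STAR 2.5.3a, HTSeq 0.6.1p1 and the mm10 build, whereas the methods of the study name another mouse build, Cufflinks and Cuffdiff. The strand setting and annotation of the counting are not given in the sources used here. The authors deposited raw counts per Ensembl gene, whole numbers with no normalization. Coordinates and promoter windows come from RefSeq on GRCm38.p6, and exon lengths, GC content and overlaps from GENCODE on GRCm39, which gave an identifier for 51477 of 55450 genes.

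Counts were scaled with TMM, filtered with filterByExpr and tested for age alone in a joint model of all libraries (edgeR 4.0.16, quasi-likelihood, under R 4.3.3 with limma 3.58.1), with Benjamini-Hochberg adjustment and a threshold of 0.05. Each fold change is later over earlier age, and the contrast of intervals is the later change minus the earlier one. Ratios took counts plus 0.5 and two-sided exact permutation tests. DESeq2 1.42.0, other scalings and filters, GC and length corrections, a replicate block and left-out libraries were alternatives. The procedure was also run on simulated counts. Far fewer genes were set to change with age there than were called here, so these runs do not bear on the choice of scaling. All 18 pairs of same-age libraries were further apart than counting noise allows. Each library stands for a separate mouse in the study's description, and p-values measure only the spread between these mice.

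A pair of genes of the pathway lists is not reported here. The genes, lists and tests were chosen with earlier results of these data known. Named genes are the 7 genes, genes of the stated lists, genes that overlap one of the 7, and the 2 protein-coding genes closest to each in course over the 12 libraries. Markers of other cell types not described in the results had these ranges of summed CPM from E18.5 over 2 wks to 7 wks: satellite cells 57.6 to 91.2, 39.3 to 45.7 and 30.7 to 35.3; fibroblasts 2970 to 7130, 2920 to 3940 and 629 to 2810; nerve 44.3 to 76.3, 80.8 to 436 and 57.1 to 97.8; red blood cells 240 to 1020, 145 to 755 and 91.9 to 130; endothelium 262 to 402, 631 to 777 and 370 to 627; macrophages 51.6 to 75.1, 27.0 to 38.6 and 9.29 to 29.7. Figures were drawn with matplotlib 3.10.9.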

Additional observations from a re-analysis of the deposited data

Results flagged for a closer look

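In each group of 4 libraries, the gap between the highest or lowest library and its neighbour was compared with the range of the group by Dixon's test, for the 7 genes, the named pathway genes and the ratios. Of 84 groups 4 had such a library, where chance gives about 4.2. *Atp2a1* was low at 38800 CPM in 7 wks replicate 2. *Dio3os* was high at 2.16 CPM in E18.5 replicate 3, a library with adipocyte markers. *Meg3* was high at 3370 CPM in E18.5 replicate 2, the library with the most epidermis, cartilage and bone signal. *Myh7* was high at 39.5 CPM in 2 wks replicate 1. None of the 7 genes gave such a library, and the split of *Thrb* at E18.5 into 2 low and 2 high libraries is of a kind that this test does not see.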

How the results depend on the processing

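The 21 changes of the 7 genes over 3 comparisons were recomputed with other settings, together with the contrast of intervals. With total count scaling *Thra* turned to -0.58, -0.22 and -0.79 (E18.5 to 2 wks, 2 to 7 wks and the whole span) and, with the GC trend removed, to -0.65 and -0.28 (first interval and whole span). Total counts moved the median of all genes from -0.09 to -1.02 in the first interval and from -0.03 to -0.38 in the later one, and the share of higher genes among those called from 47.9% to 17.6% and from 49.3% to 15.0%. The contrast of intervals turned for *Thra* (0.36 with total counts, 1.03 with the GC trend removed), *Thrb* (-0.049 with the GC trend removed, -0.42 without E18.5 replicate 4, -2.22 without E18.5 replicates 3 and 4) and *Slc16a10* (0.28 with total counts). The 2 to 7 wks value of *Dio3* turned to 0.13 with the GC trend removed, 0.022 without 2 wks replicate 4 and 0.14 without 7 wks replicate 3, in a range of -0.73 to 0.14 with 1 library left out. Among the other genes, to 2 wks, *Crym* turned to -0.60 with total counts and -0.15 with the length trend removed, and *Kat2b* to -0.11 with total counts. In the same interval *Ppargc1a* turned to -0.83 with total counts, -0.035 with upper quartile scaling, -0.017 with at least 10 counts in every library, -0.019 with the length trend removed, and -0.11 without E18.5 replicate 2. *Thrsp* turned to 1.08 and *Dio3os* to 0.20 without E18.5 replicates 3 and 4, and *Dio3os* ran from -1.24 to 0.032 with 1 library left out, the last without E18.5 replicate 3. The causes were not tested.

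The number of the 7 genes called from 2 to 7 wks was 2, became 1 with total counts, upper quartile scaling or the length trend removed, 0 for a log2 fold change beyond 1, and 4 with only the 8 libraries compared. With single libraries left out it ran from 1 to 4 (1 without 2 wks replicates 1 or 2 or 7 wks replicates 1, 2 or 4, and 4 without E18.5 replicate 2). For the contrast of intervals it was 3 and became 6 with the GC trend removed. Pathway genes called to 2 wks fell from 18 to 9 beyond a log2 fold change of 1. From 2 to 7 wks they went from 16 to 10 with total counts, to 1 beyond a log2 fold change of 1, and to 8 to 17 with single libraries left out (8 without 2 wks replicate 1, 10 without 2 wks replicate 2, 9 without 7 wks replicate 4). For the contrast of intervals they went from 12 to 4 beyond that fold, and to 6 to 14 with single libraries left out (6 without 2 wks replicate 2). All genes called to 2 wks and to 7 wks fell from 12668 to 5507 and from 13755 to 7574 beyond a log2 fold change of 1.

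The log2 ratio of *Thrb* to *Thra* between E18.5 and 2 wks was 2.77 (exact permutation p = 0.0286) with the GC trend removed, and its range with 1 library left out was 0.70 to 2.18. For the whole span that range was 1.99 to 3.46, with the exact p at 0.0857 without any 1 of the 7 wks libraries. For *Dio2* to *Dio3* the difference to 2 wks turned to 0.70 with the GC trend removed. The later difference was 0.50 under the GC correction (exact p = 0.486) and 0.89 with the length trend removed (exact p = 0.114), and 0.75 to 1.23 with 1 library left out. Over the whole span it turned to -0.26, -0.01 and -0.12 without E18.5 replicate 2, E18.5 replicate 3 and 7 wks replicate 3, with a range of -0.26 to 0.50. With 3 against 4 libraries an exact permutation p of 0.0286 can still be reached. The ratio of *Thrb* to *Thra* from 2 to 7 wks gave it with each of 8 libraries left out.

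Libraries of different ages that shared a replicate number were on average little more alike than others. The correlation of their deviations from the age means was 0.043 on average, beside -0.015 for pairs with other numbers. It ran from -0.28 to 0.52, and 5 of 12 pairs exceeded 0.1. The numbers were therefore not taken as a pairing. With the replicate number as a block, the 7 genes gave 5, 2 and 7 calls in the 3 comparisons and 3 for the contrast of intervals, the same numbers as without the block. *Dio3* rests on 1 to 12 reads per library after birth.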
